A study of Danio rerio with 4 samples.

Results

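The genes described here are those that encode the proteins of the cytosolic ribosome. They were chosen by name alone, as every gene whose symbol is rpl or rps followed by a digit, rplp followed by a digit, or rpsa, in any case, with the 10 rps6k kinase genes left out. This gave 75 of the 20905 genes with at least 1 transcript, 41 with a large subunit name and 34 with a small subunit name. All 75 were detected in every plate. Of these, rps19bp1 and RPL7L1 share the naming but are not ribosomal proteins, which leaves 73 ribosomal protein genes. The gene listed as RPSA2 (ENSDARG00000019181) was taken as rpsa, and a zebrafish rps4 gene is listed under the symbol RPS4Y2 (ENSDARG00000014690). The 4711 genes without a symbol, which held 16.4% of transcripts, may include further members.

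The cells came from adult zebrafish ventricles 7 days after cryoinjury (7 dpi), in which part of the ventricle is killed by freezing. The labels call the line Tg(tcf21:mCherry). By the study's methods it carried a tamoxifen-dependent Cre under tcf21, a transcription factor gene of the epicardium, and a reporter under the ubiquitous ubi promoter that switches from EGFP to mCherry once Cre has cut it. All fish were treated with hydroxytamoxifen as embryos, so mCherry marks cells that expressed tcf21 in the embryo and their descendants, whether or not they still express it. Cells positive for mCherry and negative for EGFP were sorted 1 per well. Wild-type siblings were compared with prrx1b-/- fish, which carry nonsense mutations in a homeobox transcription factor gene in all cells. Each genotype gave 2 plates of 384 wells and 20 ventricles in all, and nothing in the labels ties a plate to its own fish, so the spread between plates may be technical.

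Ribosomes translate mRNA into protein. The small subunit decodes the mRNA and the large subunit joins amino acids, and each protein is needed in about equal number, so their genes are read out together in most cells. Their mRNAs carry a 5′ terminal oligopyrimidine (5′ TOP) tract, through which growth signals of the mTOR pathway control their translation. Ribosomal protein mRNAs are short, abundant and stable, and their share of a cell's mRNA is often read with its growth state. No sequence of these genes is shown because the reference tables used here hold names only.

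Wells with at least 1000 transcripts numbered 357 and 364 in wild-type plates and 366 and 366 in the prrx1b-/- plates, 1453 in all. The median well held 6055 and 5065 transcripts in wild-type plates and 7654 and 7543 in prrx1b-/- plates, so the mutant plates were deeper. The summed plates held 2628354 to 3773059 transcripts. Summed markers of fibroblasts were 2.60% and 3.38% of transcripts in wild type and 3.65% and 3.88% in prrx1b-/-, and markers of the epicardium were at 0.102 to 0.118% in all plates. Those of endothelial cells, leukocytes and erythrocytes were at or under 0.00443%, with cardiomyocyte markers at 0.000520 to 0.0122%. Only 2 genes were found for 5 erythrocyte marker names and 3 for 5 endothelial names, so the values of these 2 lists are incomplete. The genotype could not be checked on its transcript, since 2 genes are both listed as PRRX1 and a nonsense allele can still be transcribed. One of them (ENSDARG00000033971) had 342 and 321 transcripts in wild-type and 366 and 477 in prrx1b-/- plates, and the other (ENSDARG00000042027) had 7, 3, 15 and 9. By the study's account prrx1b was too low in these cells to be tied to a cluster, and ENSDARG00000042027 is the lower of the 2 genes.

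Ribosomal protein genes were among the best measured genes of these cells. Their mean levels over the 4 plates reached 1000 CPM or more for 56 of the 75 genes (CPM, a gene's transcripts per 1000000 transcripts of its plate), and 65 were detected in at least 90% of the wells. The method reads the 3′ end of each mRNA, so a count is not scaled by length. Other differences between genes in capture or mapping were not checked, so the order of levels is that of the counts. The 10th and the 66th gene in order of level were 3.59-fold apart. The highest level was that of RPS2 (ENSDARG00000077291), a small subunit protein at the mRNA entry channel, with 5392 and 5908 CPM in wild-type and 4814 and 4924 CPM in prrx1b-/- plates.

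The next in order were 2 proteins of the P stalk, the flexible arm of the large subunit that recruits the GTPase translation factors. RPLP0 (ENSDARG00000051783), the base of the stalk, was at 3902 and 3528 CPM in wild type and 3421 and 3600 CPM in prrx1b-/-, with overlapping genotypes. RPLP1 (ENSDARG00000021864) was at 3532 and 4355 CPM in wild type and 2970 and 3160 CPM in prrx1b-/-. The partner of RPLP1, rplp2l (ENSDARG00000011201), stood 37th, at 1793 and 1858 CPM in wild type and 1295 and 1187 CPM in prrx1b-/-. The counts of these stalk genes were thus not at 1 level. No gene with the symbol rplp2 was among the members, so rplp2l may not hold all transcripts of this partner. The other genes of the top 8 were RPSA2, rps27a, RPS4Y2, RPL6 and RPS12, of which rps27a encodes a ubiquitin fused to a ribosomal protein. RPSA2 was at 2829 and 3056 CPM in wild type and 2473 and 2525 CPM in prrx1b-/-, and the 8 together held 22.2% of the transcripts of the 75 genes.

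**Figure D1:**
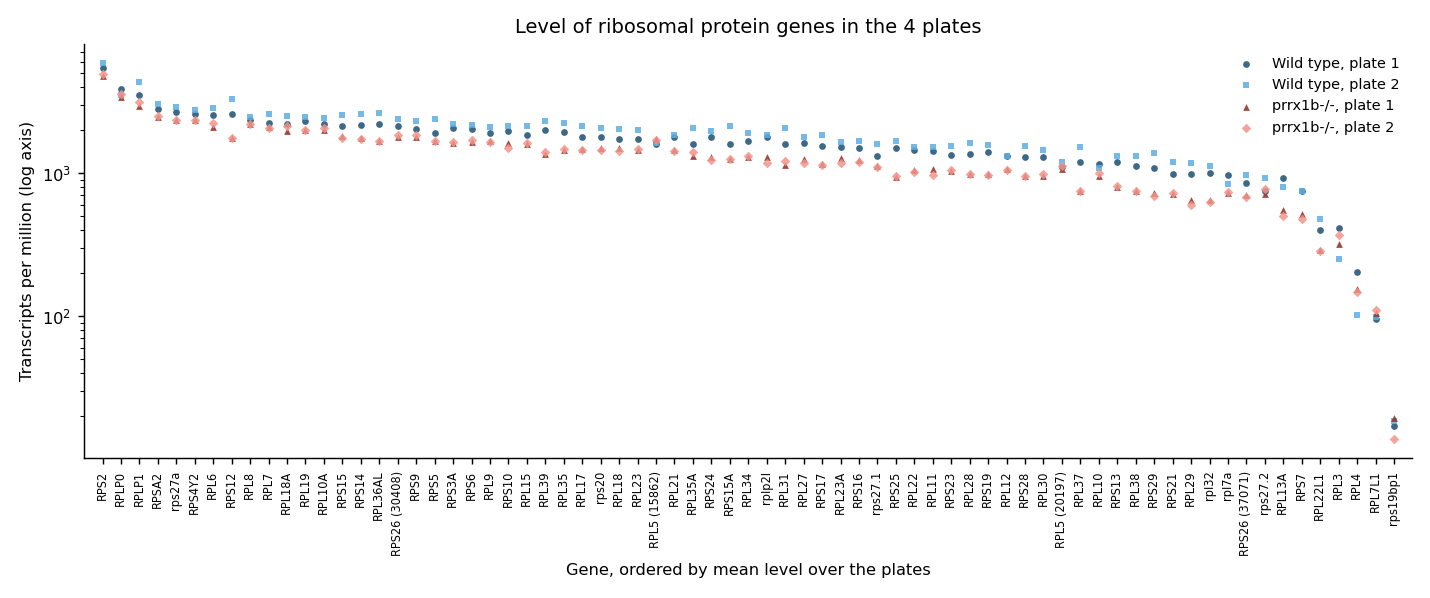
Level of 71 of the 75 genes in CPM on a log axis (y) against the genes in order of mean level (x), with 1 point per plate, and the last 5 digits of the gene ID where a symbol is shared. Most genes lie between about the level of RPS7 and that of RPLP1, the mutant points lie under the wild-type points for 63 of the 71 genes, and rps19bp1 lies far below the rest.

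Toward the low end, rps19bp1 (ENSDARG00000091124), named for a partner protein of RPS19, was at 13.9 to 19.3 CPM. RPL3 and RPL4, large proteins at the core of the large subunit, were low for ribosomal proteins and uneven between the wild-type plates. RPL3 (ENSDARG00000003599) was at 413 and 252 CPM in wild type and 322 and 369 CPM in prrx1b-/-. RPL4 (ENSDARG00000041182) was at 206 and 102 CPM in wild type and 155 and 147 CPM in prrx1b-/-, so for both genes the mutant plates lay between the wild-type plates.

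Ribosomal protein transcripts made up a smaller share of all transcripts in the prrx1b-/- plates. Wild-type plates 1 and 2 were at 12.04% and 13.5% and prrx1b-/- plates at 9.77% and 9.81%, a mean of 12.8% ± 1.04 (SD, n = 2) against 9.79% ± 0.0296 (SD, n = 2). The difference of −2.99 percentage points was larger than the spread between plates, and the genotypes did not overlap, but an exact permutation test of 2 plates against 2 cannot go below its p of 0.333 (two-sided). Counting error was far smaller than this, with 95% Wilson intervals from 12.004 to 12.1%, 13.5 to 13.6%, 9.74 to 9.80% and 9.78 to 9.84% for the 4 plates, which cover counting error only. Both subunits took part, with large subunit genes at 6.96% of transcripts in wild type and 5.41% in prrx1b-/-, and small subunit genes at 5.82% and 4.38%. The ratio of large to small subunit transcripts was 1.22 and 1.18 in wild-type plates and 1.23 and 1.24 in prrx1b-/- plates.

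Wells of a plate differed in this share by much more than counting error. It ran from 0.982 to 25.7% with a median of 11.4% in wild-type plate 1, and from 2.99 to 31.7% with a median of 12.6% in wild-type plate 2. In the mutant it ran from 1.32 to 28.2% with a median of 9.17% in plate 1, and from 1.97 to 19.3% with a median of 9.41% in plate 2. The SD over wells was 3.18 to 4.47 percentage points in the 4 plates, where the number of transcripts per well alone would give 0.381 to 0.543. The interquartile range was 9.02 to 13.9% and 10.2 to 15.6% in wild-type plates and 7.07 to 11.4% and 7.24 to 11.6% in prrx1b-/- plates, so single cells of both genotypes overlapped widely. Large and small subunit shares moved together over the wells of a plate, with Pearson's r of 0.962 to 0.968 over 357 to 366 wells, a description in which each pair of values shares a well and its depth.

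The number of ribosomal protein transcripts per well overlapped between the genotypes, while that of other transcripts was higher in both mutant plates than in either wild-type plate. The median well held 696 and 653 ribosomal protein transcripts in wild-type plates and 692 and 713 in prrx1b-/- plates (mutant to wild type 1.04, exact permutation p = 0.667, two-sided), and the genotypes overlapped. It held 5368 and 4390 other transcripts in wild type and 6887 and 6658 in prrx1b-/- (1.39, exact permutation p = 0.333, the smallest possible). Relative to the ERCC spike-ins, synthetic RNAs added in equal amount to each well, ribosomal protein transcripts were at 0.771 and 0.912 per spike-in transcript in wild type and 0.704 and 0.801 in prrx1b-/- (0.894, exact permutation p = 0.667). Other transcripts were at 5.63 and 5.84 per spike-in transcript in wild type and 6.50 and 7.37 in prrx1b-/- (1.21, exact permutation p = 0.333). Over all wells, a lower share therefore stood beside overlapping amounts of ribosomal protein transcripts per well and per spike-in.

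**Figure D2:**
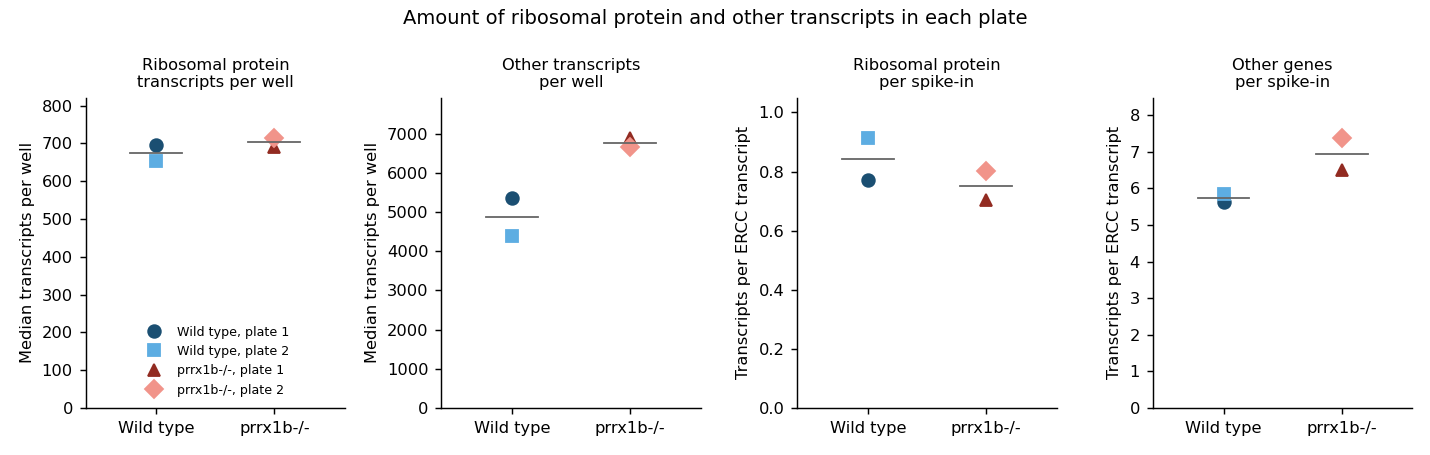
Median ribosomal protein and other transcripts per well, and both per ERCC spike-in transcript (y, from 0), for the wild type and prrx1b-/- (x), with 1 point per plate and a line at the mean of 2 plates. The plates of both genotypes overlap in ribosomal protein transcripts (653 to 713 per well), while the mutant plates lie above the wild type in other transcripts (6658 and 6887 against 4390 and 5368).

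Because mutant wells were deeper, the share was compared within ranges of transcripts per well. In wells with 1000 to under 3000 transcripts it was 10.7% and 11.5% in wild type and 8.98% and 8.34% in prrx1b-/-, a difference of −2.40 percentage points. With 3000 to under 6000 transcripts it was 11.5% and 13.5% against 8.80% and 9.12%, a difference of −3.57. With 6000 to under 12000 it was 12.1% and 14.03% against 10.2% and 10.002%, a difference of −2.97, and with 12000 or more 12.3% and 13.6% against 9.75% and 9.93%, a difference of −3.10. The genotypes did not overlap in any of the 4 ranges (exact permutation p = 0.333 in each, the smallest possible, two-sided), with 32 to 138 wells of a plate in a range. The lower share of the mutant plates was thus seen within each range of depth. Unlike over all wells, ribosomal protein transcripts per spike-in did not overlap between the genotypes in any range. Their mutant to wild type ratios were 0.744, 0.662, 0.728 and 0.782 from the shallowest to the deepest range. Those of other transcripts per spike-in were 0.982, 0.969, 0.983 and 1.07. A range of total transcripts per well leaves other transcripts little room to differ. Within a range these ratios therefore largely repeat the share and are no separate measure of amount.

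**Figure D3:**
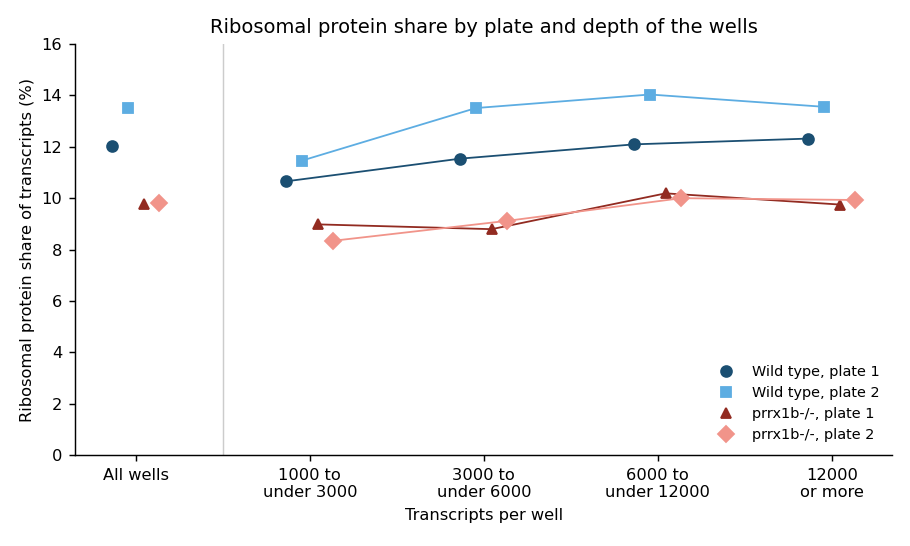
Ribosomal protein share of transcripts in percent (y, from 0) over all wells and in 4 ranges of transcripts per well (x), with 1 point per plate. In every range both mutant plates lie below both wild-type plates, and in every plate the shallowest wells lie below the wells with 6000 to under 12000 transcripts.

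Gene by gene, transcripts were summed per plate and tested with edgeR's quasi-likelihood test over 11191 genes, and a gene was called at a Benjamini-Hochberg adjusted p under 0.05. Of the 75 genes, 8 were called lower in prrx1b-/- (10.7%), where 0.617% of all tested genes were, and 0 were called higher, where 0.357% of all tested genes were. Without adjustment 49 of the 75 were under 0.05. The log2 change was below 0 for 72 of 75 genes, with a median of −0.37 against −0.01 over all tested genes. In 65 of 75 genes both mutant plates lay below both wild-type plates, as did 24.2% of all tested genes. In 2 both lay above, a direction not counted over all tested genes, so nothing is read from that number.

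The 8 called genes were split evenly between the subunits, and 6 of them are given here by name. RPL37 (ENSDARG00000034291), a small protein of the large subunit, was at 1188 and 1528 CPM in wild-type and 748 and 751 CPM in prrx1b-/- plates, the largest fall (log2 change −0.84, SE 0.16, edgeR adjusted p = 0.0352). RPL29 (ENSDARG00000077717), a large subunit protein not essential in mice, fell from 991 and 1177 CPM to 648 and 598 CPM (−0.79, SE 0.15, edgeR adjusted p = 0.0366). In both genes the 2 mutant plates lay close together and below both wild-type plates.

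RPS29 (ENSDARG00000041232), a small zinc-binding protein of the small subunit, was at 1087 and 1375 CPM in wild type and 732 and 695 CPM in prrx1b-/- (−0.77, SE 0.16, edgeR adjusted p = 0.0488). RPS25 (ENSDARG00000041811), a small subunit protein used by viral internal ribosome entry sites, was at 1500 and 1690 CPM in wild type and 939 and 960 CPM in prrx1b-/- (−0.73, SE 0.14, edgeR adjusted p = 0.0376). The large subunit gene rpl32 (ENSDARG00000054818) was at 1004 and 1123 CPM in wild type and 654 and 628 CPM in prrx1b-/- (−0.72, SE 0.14, edgeR adjusted p = 0.0425). All 3 fell without overlap between the genotypes.

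RPL13A (ENSDARG00000044093), which in human cells also serves outside the ribosome in a translational silencing complex, was at 919 and 802 CPM in wild type and 549 and 505 CPM in prrx1b-/- (−0.69, SE 0.14, edgeR adjusted p = 0.0452), with wild-type plate 2 the lower wild-type plate. Over all 75 genes, wild-type plate 2 was above wild-type plate 1 in 66, so in most genes the wild-type plate farther from the mutant was plate 2.

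**Figure D4:**
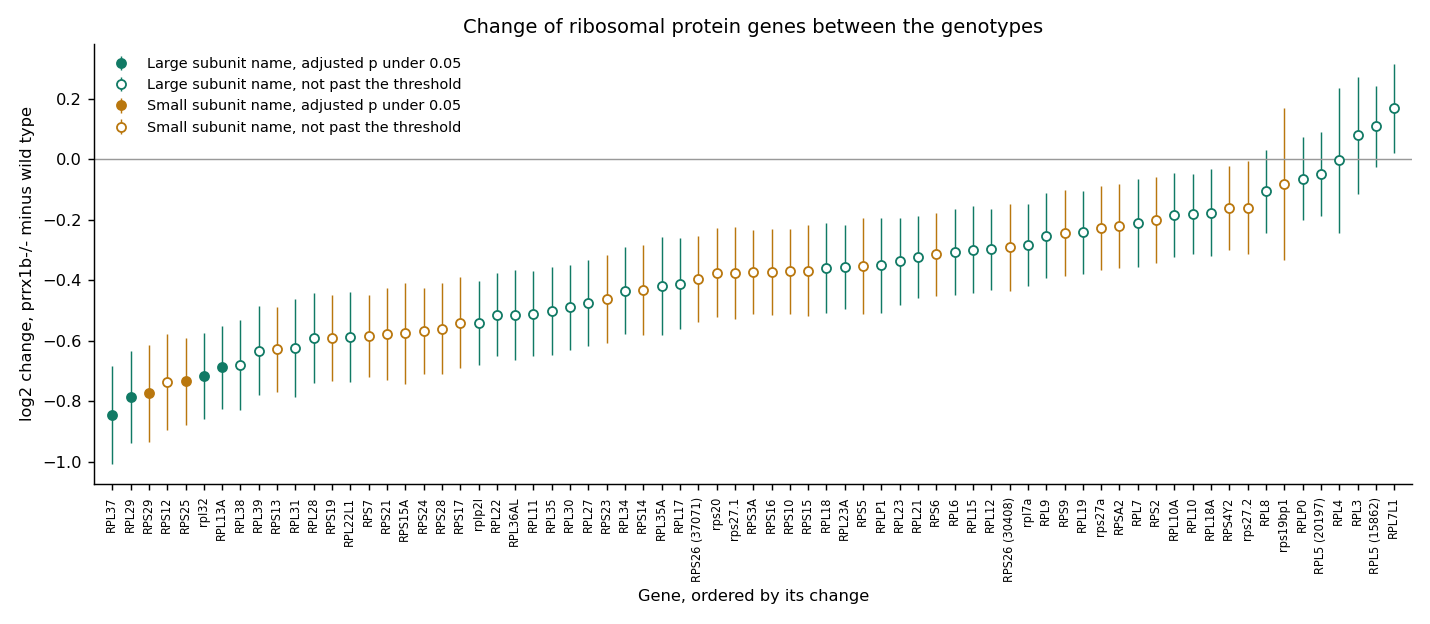
The log2 change of 71 of the 75 genes between the genotypes, prrx1b-/- minus wild type (y), in order of size (x). Bars are 1 SE, derived from the F statistic of edgeR's quasi-likelihood test. Filled points mark 6 of the 8 called genes, from −0.84 for RPL37 to −0.69 for RPL13A, and only RPL3, a RPL5 gene and RPL7L1 lie above 0.

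Just short of the threshold were RPS12 (log2 change −0.74, adjusted p = 0.0584), RPL38 (−0.68, adjusted p = 0.0584) and RPS13 (−0.63, adjusted p = 0.0618), all from edgeR's quasi-likelihood test. RPS12 (ENSDARG00000036875), known in the fruit fly for its part in cell competition, was the only gene of the 8 highest with a change of this size, at 2599 and 3291 CPM in wild type and 1752 and 1753 CPM in prrx1b-/-. RPS2, RPLP0, RPLP1, RPSA2, rps27a, RPS4Y2 and RPL6 had log2 changes from −0.35 to −0.06, none called. Among the 37 genes of higher level the median change was −0.34 and 0 were called, and among the 38 of lower level it was −0.52 and 8 were called.

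The order of the changes did not follow the subunits, whose medians were −0.36 for the large and −0.39 for the small subunit, with 4 called in each.

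Between plates of wild type, some of the same genes differed. RPL37 was 1188 and 1528 CPM and RPS29 1087 and 1375 CPM in wild-type plates 1 and 2, whereas the 9 genes lower in wild-type plate 2 included RPL3, RPL4, RPLP0, RPL10 and rpl7a. RPL10 was 1155 and 1085 CPM, and rpl7a 975 and 836 CPM. The part of plate-to-plate differences in the genotype changes was not tested.

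Other parts of the translation apparatus gave no calls in edgeR's test. Of all tested genes only 0.617% were called lower and 0.357% higher, so in lists of this size an absence of calls says little. Of 24 tested translation factors and other 5′ TOP genes outside the ribosome, 0 were called in either direction, 4 were under an unadjusted p of 0.05 and the median log2 change was −0.09, and DESeq2 called 1 lower. They made up 2.24% and 2.22% of transcripts in wild-type and 2.08% and 2.08% in prrx1b-/- plates (exact permutation p = 0.333, the smallest possible). Both mutant plates were thus below both wild-type plates in this share, and were so in each of the 4 ranges of depth. The 35 tested ribosome biogenesis factors had a median of 0.01 and the 18 growth and nucleolar stress regulators a median of −0.00, with 0 called in both lists and 6 and 3 genes under an unadjusted p of 0.05. Unlike the biogenesis and regulator lists, mitochondrial ribosomal proteins, which build the separate ribosome of that organelle, were below 0 in 49 of 61 tested genes. Their median was −0.36 with a median SE of 0.32, and 0 were called (9 under an unadjusted p of 0.05). Nuclear genes for oxidative phosphorylation, a list added after the values were seen, were below 0 in 68 of 80 with a median of −0.28 and 0 called, 25 of them under an unadjusted p of 0.05. DESeq2 called 0 genes in these last 4 lists. Values on the same side of 0 were thus not limited to the cytosolic ribosome.

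These calls rested on few plates. Without either mutant plate 0 of the 75 genes were called by edgeR (13 and 14 under an unadjusted p of 0.05), and 61 were called lower without wild-type plate 1 and 30 without wild-type plate 2, where 2.50% and 2.05% of all tested genes were. Each of these fits has 1 plate in an arm, so its spread comes from the 2 plates of the other genotype alone and the lone plate is assumed to vary like them. The mutant plates lay closer together than the wild-type plates in the ribosomal protein share, with SDs of 0.0296 and 1.04 percentage points. Scaled to the ERCC spike-ins, the median of all tested genes moved to 0.19, the median of the 75 genes was −0.17, 61 of 75 were below 0 and 0 were called (10 under an unadjusted p of 0.05), and RPS2, RPLP0 and RPS4Y2 then lay at 0.01, 0.15 and 0.05.

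Within a plate, the shallowest wells carried a smaller ribosomal protein share than wells with 6000 or more transcripts, without a steady rise. Between 6000 to under 12000 and 12000 or more transcripts, it went from 12.1% to 12.3% in wild-type plate 1 and from 14.03% to 13.6% in wild-type plate 2. In mutant plates 1 and 2 it went from 10.2% to 9.75% and from 10.002% to 9.93%. From wells with 1000 to under 3000 transcripts to wells with 6000 to under 12000 the share was higher in 4 of 4 plates, by 1.72 percentage points on average (1.21 to 2.57, SD 0.598), and to wells with 12000 or more by 1.53 points (0.772 to 2.09). An exact sign-flip permutation test over 4 plates cannot go below its p of 0.125 (two-sided), which it gave in both. Over the wells of a plate, Pearson's r between the share and log10 transcripts was 0.128 to 0.222 over 357 to 366 wells, a weak relation given as a description, since both values come from the same transcripts. Stress and immediate early genes, which respond to tissue dissociation, went from a mean over plates of 4.79% of transcripts in the shallowest wells to 1.65% in those with 12000 or more, and their part in the difference was not tested.

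The difference with depth was uneven over the genes. Wells with at least 6000 transcripts were compared with shallower wells in the same plates by edgeR's quasi-likelihood test with the plate as a block, over 8285 genes. Of 74 tested genes, 18 were called higher in deep wells (24.3%), where 14.6% of all tested genes were, and 0 were called lower, where 16.2% of all tested genes were. The median log2 difference was 0.14 against −0.00 over all tested genes. Deep wells lay above shallow wells in all 4 plates in 43 of the 75 genes (22.3% of all tested genes did so) and below in 3 (22.5% of all tested genes did).

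The largest rise was in RPL22L1 (ENSDARG00000010244), a paralogue of the large subunit gene RPL22. Its level went from 285 to 434 CPM and from 364 to 519 CPM between shallow and deep wells of the wild-type plates, and from 176 to 309 and from 174 to 309 CPM in prrx1b-/- plates, a log2 difference of 0.69 (SE 0.10, edgeR adjusted p = 2.78e-05). RPL11, which with RPL5 and 5S ribosomal RNA forms a particle that binds Mdm2, was next at 0.36, followed by rpl7a at 0.34 and RPS10 at 0.33. For RPL11 (ENSDARG00000043509) the shallow and deep levels were 1128 and 1507 CPM, 1349 and 1597 CPM, 820 and 1116 CPM, and 822 and 1006 CPM in wild-type plates 1 and 2 and mutant plates 1 and 2. RPL22 itself had a log2 difference of −0.16, and none of the 8 genes called lower in prrx1b-/- was called with depth. That overlap was not counted over all tested genes, so nothing is read from it. In injury marker wells alone, 2 of 73 genes were called higher (2.74%), where 3.69% of all tested genes were. With the plates not blocked 0 of 74 were (3 under an unadjusted p of 0.05), where 10.4% of all tested genes were. When wells were split at 9000 transcripts, 8 of 74 were called higher (10.8%), where 16.1% of all tested genes were. In each of these fits, the share of members was below that of all genes.

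Cells were also grouped by epicardial markers, since the epicardium over the injury and that over the remote ventricle differ in activation. The study's main text uses tcf21, tbx18, aldh1a2 and wt1b in this way and does not name rtca. Remote marker wells had more transcripts of tcf21, tbx18 and rtca than of aldh1a2 and wt1b, and injury marker wells the reverse. This gave 722 injury marker wells, 536 remote marker wells and 195 ties, of which 104 wells had none of these transcripts. In all, 440 wells lay within 1 transcript of the dividing line, so the groups are ranges and not cell types. By the study's account, aldh1a2 and wt1b were found in most clusters outside the remote epicardium and were highest in injury epicardium. Injury marker wells may therefore hold other cells than injury epicardium.

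The ribosomal protein share was lower in remote marker wells of every plate. It was 12.2% in injury and 11.7% in remote marker wells of wild-type plate 1, and 13.6% and 13.1% in plate 2. In the mutant it was 10.01% and 9.06% in plate 1, and 10.1% and 8.83% in plate 2. The mean difference was −0.808 percentage points (−1.31 to −0.483, lower in 4 of 4 plates, exact sign-flip permutation p = 0.125, the smallest possible). Remote marker wells were shallower, with a mean of the plates' medians of 4798 against 10334 transcripts, and held more stress gene transcripts, a mean over plates of 4.32% against 1.88%. At 3000 to under 6000 transcripts the difference was −0.869 (−1.67 to 0.665, exact p = 0.25) and at 6000 to under 12000 it was −0.447 (−1.28 to 0.196, exact p = 0.5), so within these ranges the plates no longer shared a direction. The ranges did not make depth equal, since at 6000 to under 12000 transcripts the mean of the plates' medians was 8912 in injury and 7660 in remote marker wells, lower in 4 of 4 plates. The smallest of these groups held 19 wells, remote marker wells of wild-type plate 2 with 6000 to under 12000 transcripts.

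**Figure D5:**
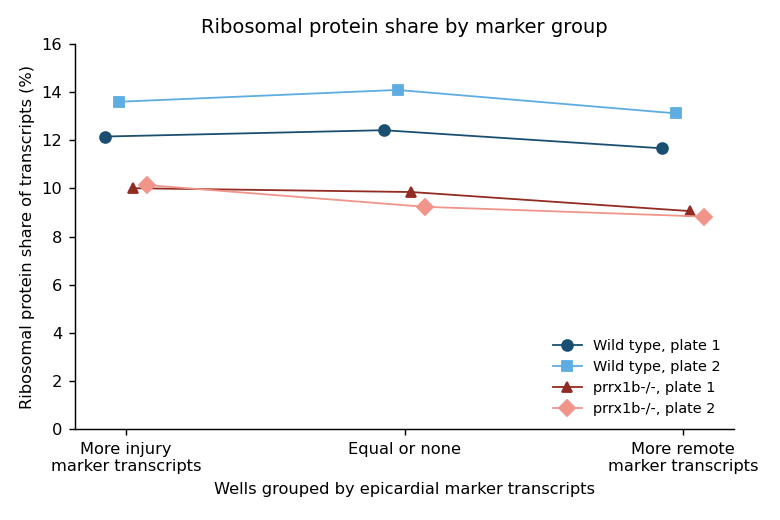
Ribosomal protein share of transcripts in percent (y, from 0) in wells with more injury marker transcripts, with equal or no marker transcripts, and with more remote marker transcripts (x), with 1 line per plate. Each plate is lower in remote than in injury marker wells, by 0.483 to 1.31 percentage points, and the mutant plates lie below the wild-type plates in all 3 groups.

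Gene by gene, 21 of 74 tested genes were called lower in remote marker wells (28.4%), where 14.6% of all tested genes were, and 0 were called higher, where 15.5% of all tested genes were (edgeR's quasi-likelihood test with the plate as a block, 8390 genes). The log2 difference was below 0 in 73 of 74 with a median of −0.19 against −0.02 over all tested genes, and 45 of the 75 were lower in all 4 plates (19.1% of all tested genes were), with 0 higher in all 4 (24.5% of all tested genes were). RPL22L1 led again, at 436 and 325 CPM, 499 and 399 CPM, 312 and 232 CPM, and 316 and 201 CPM in injury and remote marker wells of the 4 plates (log2 difference −0.53, edgeR adjusted p = 0.000529). It was followed by RPL11 at −0.39, RPL7L1 (ENSDARG00000042864) at −0.38 and rps20 at −0.33, of which RPL7L1 is a nucleolar relative of RPL7 and no ribosomal protein.

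Of the 21, 13 were also called higher in deep wells, a pair of comparisons that share wells, and 1, rpl32, was among the 8 called lower in prrx1b-/-. Neither overlap was counted over all tested genes, so nothing is read from these numbers. In wells with 3000 to under 12000 transcripts 5 of 73 genes were called lower (6.85%), where 9.27% of all tested genes were, among them RPL11 at −0.37, while RPL22L1 at −0.30 was not (edgeR adjusted p = 0.0913), and with the plates not blocked 0 of 74 were called lower (3 under an unadjusted p of 0.05), where 10.5% of all tested genes were. Without mutant plate 2 the count was 5 of 74 (6.76%, against 10.4% of all tested genes) and without mutant plate 1 it was 8 (10.8%, against 11.1%). It was 12 without wild-type plate 1 (16.2%, against 12.2%) and 25 without wild-type plate 2 (33.8%, against 13.4%). The share of members above that of all genes was thus not seen in this range of depth, without the block, or without either mutant plate.

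The genotype difference in share was seen in each marker group, at −2.80 percentage points in injury marker wells, −3.45 in remote marker wells and −3.71 in ties. The study describes a fibroblast cluster made mostly of wild-type cells and another enriched in prrx1b-/- cells. The marker groups were not built to separate these, and the part of cell makeup in the genotype difference was not tested. Whether the genotype change differed between remote and injury marker wells was tested as an interaction with edgeR's quasi-likelihood test. None of 74 genes was called, where 0.0715% of all 8390 tested genes were called lower and 0 higher. That count is thus no result about these genes. An unadjusted p under 0.05 was found for 3 of the 74 and for 547 of the 8390. The interaction was below 0 in 71 of 74 with a median of −0.15. Over all tested genes it was below 0 in 4183 of 8390 with a median of 0.00. In remote marker wells alone 25 of 73 genes were called lower in prrx1b-/- (34.2%), where 1.06% of all tested genes were, and in injury marker wells alone 11 of 75 (14.7%), where 0.846% of all tested genes were.

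Wells richest in stress gene transcripts had the lowest ribosomal protein share. The wells of each plate were split into 4 groups of equal size by stress transcripts relative to all transcripts that were not ribosomal protein transcripts. The mean ribosomal protein share went from 11.2% in the lowest to 9.36% in the highest group. It was lower in 4 of 4 plates (−2.07 to −1.80 percentage points, exact sign-flip permutation p = 0.125, the smallest possible). The path was not even, since the middle groups were highest, at 13.1% and 12.6%, 14.5% and 14.4%, 10.02% and 10.4%, and 10.2% and 10.4% in the 4 plates. Median depth went from 12110 to 4444 transcripts between the outer groups, so depth and stress cannot be told apart here. The share of stress and immediate early genes did not separate the genotypes, with 2.89% and 2.24% of transcripts in wild-type and 2.49% and 2.63% in prrx1b-/- plates. Of 23 such genes, 0 were called by edgeR or DESeq2 (4 under an unadjusted p of 0.05 in edgeR). Of all tested genes, edgeR called 0.617% lower and 0.357% higher.

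Several ribosomal proteins are encoded by a pair of genes, and in each pair the same gene led in every plate. Of the RPL5 transcripts, ENSDARG00000015862 gave 59.3% and 57.6% in wild-type and 61.9% and 60.2% in prrx1b-/- plates. It was 1 of the 3 genes above 0 in the genotype comparison (log2 change 0.11, not called), and the other RPL5 gene (ENSDARG00000020197) was at −0.05, while their partner RPL11 was at −0.51 (edgeR adjusted p = 0.123). RPS26 was led by ENSDARG00000030408 with 71.1 to 73.3%, and RPL22 gave 76.1 to 78.4% of the transcripts of RPL22 and RPL22L1. The share of rps27.1 in rps27.1 and rps27.2 was 63.6% and 63.2% in wild type and 60.9% and 58.8% in prrx1b-/-. Where paralogues share 3′ sequence, how reads were divided between them cannot be seen from the counts.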

How the data were processed

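SORT-seq libraries (CEL-Seq2 chemistry, 3′ ends, molecular barcodes) were made from 4 plates, 2 per genotype. Mapping was to Zv9 by the study's methods, and BWA 0.6.2 is named in the submitters' processing notes. The authors deposited expected counts, transcripts per gene and well corrected for barcodes drawn more than once. The labels give barcodes of 4 bases, but 99.8% of the 99070 member values above 0 lie within 0.01 of the correction for 6 bases, which adds at most 3.31% to a member value.

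Wells under 1000 transcripts were left out. Doublets were not sought, since 1 cell was sorted per well. The plates share no wells. Members were found by symbol. Members and lists were chosen with earlier results of these data known. Members named with values were the 8 highest, the 8 called genes with the largest change between genotypes, the 4 with the largest change in the other comparisons, the P stalk and rpsa, with paralogues as groups and others named for context after their values were seen. Some members are counted throughout but not reported here by name or in the figures. Counts were summed per plate and rounded, passed through filterByExpr and TMM scaling, and put to the quasi-likelihood test of edgeR 4.0.16 in R 4.3.3 at a Benjamini-Hochberg adjusted p of 0.05 over all genes. Shares were compared over plates with exact permutation tests (SciPy 1.17.1). In the genotype comparisons, p-values measure the spread between plates, which may be technical. With the plate as a block, or with sign flips, they measure how much the difference within a plate varied over the plates. On simulated counts with the depth of the genotype comparison (11191 genes), 53% of 2-fold and 89% of 4-fold changes were recovered. Of the 153 genes called there, 11 were false calls. The changed genes were drawn at random from all tested genes, whose median SE was 0.26, against 0.14 for the members. Each SE given with a log2 change was derived as its absolute value divided by the square root of the F statistic of edgeR's test. Alternatives were DESeq2 1.42.0 as test or scaling, other filters and minimums, ERCC scaling, thinning to 1000 transcripts, the block and leaving out plates.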

Additional observations from a re-analysis of the deposited data

How the results depend on the processing

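The share of ribosomal protein transcripts stayed lower in the mutant plates under every alternative tried, from −3.09 percentage points with mitochondrially encoded genes left out of the total to −2.74 as the median over wells. Leaving out 1 plate gave −3.73 to −2.26 over all wells. In the 4 depth ranges, leaving out 1 plate gave −2.80 to −1.99 at 1000 to under 3000 transcripts, −4.55 to −2.58 at 3000 to under 6000, −3.94 to −2.0 at 6000 to under 12000 and −3.71 to −2.48 at 12000 or more.

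Of the 75 genes, 8 were called lower in the mutant. This count was 18 with DESeq2, where 0.706% of all tested genes were called lower. The share over all tested genes is given in brackets for the next choices. The count was 5 with DESeq2's size factors in edgeR (0.563%) and 0 with ERCC scaling (0.876%). It was 5 with a minimum of 2000 transcripts per well (0.511%) and 25 without a filter on low counts (1.22%). It was 25 of 73 in remote marker wells (1.06%), and 25 of 72 with wells thinned to 1000 transcripts (1.70%). Leaving out 1 plate gave 0 to 61, the most without wild-type plate 1, where 1 gene was also called higher, with the spread in each such fit taken from the other genotype's plates. With the replicate number as a block the count was 21, where 2.16% of all tested genes were called lower. Nothing in the labels pairs same-numbered plates, however. Their deviations were nearly unrelated (r = 0.04), which does not settle whether they pair. All 8 genes were among those called with DESeq2, with the block and without the filter, 5 of them with DESeq2's size factors and 5 with thinned wells.

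Of 74 genes, 18 were called higher in deep wells. This count was 11 with DESeq2 (14.9%), where 9.08% of all tested genes were called higher. It was 28 when split at 4000 transcripts (37.8%, against 10.4% of all tested genes). Split at 9000 it was 8 (10.8%, against 16.1%), with 1 gene called lower. Without the filter it was 47 of 75 (62.7%, against 8.34%). The count was 2 of 73 in injury marker wells (2.74%, against 3.69%) and 0 with no replicate block of the plates (against 10.4%). Leaving out 1 plate gave 10 to 20. The count of 21 lower in remote marker wells was 11 with DESeq2 (14.9%, against 8.68% of all tested genes). Without the filter it was 51 of 75 (68%, against 7.78%). It was 5 of 73 in wells with 3000 to under 12000 transcripts (6.85%, against 9.27%). With no replicate block of the plates it was 0 (against 10.5%). With 1 plate left out it was 5 to 25. The share of members was then below that of all tested genes without mutant plate 1 or 2, and above it without wild-type plate 1 or 2. Choices restricted to injury marker or remote marker wells or to 3000 to under 12000 transcripts were added after seeing the data. No named gene changed the sign of a called difference. The cause of these shifts was not tested. With 2 plates per genotype, the exact tests cannot pass 0.05. In the simulated counts, 2-fold changes in genes drawn from all tested genes were recovered about as often as missed, which was not measured for the 75 genes.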

Other observations

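Nuclear genes of oxidative phosphorylation, the list added after the values were seen, were also compared by depth and marker group. Of all tested genes, 14.6% were called higher and 16.2% lower in deep wells, and 14.6% were called lower and 15.5% higher in remote marker wells. Of 76 tested, 41 were called higher and 1 lower in deep wells, with a median log2 difference of 0.56, and 42 were called lower and 1 higher in remote marker wells, with a median of −0.52 (edgeR's quasi-likelihood test with the plate as a block). Stress and immediate early genes went the other way, with 20 of 23 called lower and 1 higher in deep wells (median −1.31) and 20 called higher and 1 lower in remote marker wells (median 1.43). The medians of the other lists were smaller in size in both comparisons. Of 34 tested ribosome biogenesis factors, 6 were called lower and 2 higher in remote marker wells, with a median of −0.23. Of 24 translation factors and other 5′ TOP genes, 7 were called higher and 2 lower in deep wells, with a median of 0.06. The share called higher was above that over all tested genes. The 16 tested growth and nucleolar stress regulators were split, with 4 called lower and 4 higher in remote marker wells. In deep wells 5 of them were called lower and 3 higher, with a median of −0.16. Of 42 mitochondrial ribosomal protein genes tested, 3 were called higher and 0 lower in deep wells, with a median of 0.44.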
